A study of Mus musculus with 6 samples.

Results

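Lcn2 and 6 further genes of the acute phase response were followed in the epididymal white fat of mice kept in the cold and of control mice. The genes are Lcn2, Hp, Saa3, Orm1, Serpina3n, Serpina3c and Ltf, 7 of the 23492 genes with reads. They were chosen by gene symbol, with Lcn2 selected on its higher read count in cold mice in an earlier look at the same libraries. The differences between cold and ctrl mice of all 7 genes are therefore given as a description, without a p-value, and nothing is concluded from how many of them stand apart.

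The acute phase response is the change in secreted plasma proteins that follows infection or injury. Interleukin-6 acts on it through STAT3, and interleukin-1 and tumour necrosis factor through NF-kB, with C/EBP factors and glucocorticoids alongside. The liver makes most of these proteins, and fat is a further source of haptoglobin, lipocalin 2, orosomucoid and, in mice, serum amyloid A3. Lcn2 is also made by neutrophils and by many epithelia, so a rise in its mRNA in a fat pad can come with other genes of the response or without them. The question here is which of the 2 patterns the libraries show.

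The cold group was 3 male wild type C57BL/6N mice, an inbred strain, of 20 weeks (mice 7, 12 and 16) held alone at 4 °C for 24 h. The ctrl group was 3 male C57BL/6N mice (mice 5, 6 and 10), for which the labels give the same age of 20 weeks and wild type genotype. Both groups came from a colony at 22 to 24 °C. The labels repeat 1 treatment text, which describes the cold exposure, with every sample, and do not state whether the ctrl mice too were housed alone. Poly-A RNA of each pad was read as direct cDNA on a nanopore device, which reads whole cDNA molecules without PCR, and every library is 1 animal. A library held 726283 to 1194134 reads in cold mice and 939107 to 1341592 in ctrl mice. Levels are in CPM, a gene's reads scaled to the total reads of its mouse, and 1 read was worth 0.747 to 1.38 CPM. The 12 markers of mature adipocytes were all present, summing to 58600 to 62110 CPM in cold mice and 57700 to 63470 CPM in ctrl mice. Cold 7 stood apart from the other libraries. The list of 20 genes of epididymal epithelium, the duct that the fat pad is attached to, summed to 455 CPM in cold 7, to 7.55 and 11.5 CPM in cold 12 and cold 16, and to 1.07 to 8.21 CPM in ctrl mice. Most of those reads were of Crisp1, a secreted sperm-coating protein, with 222 reads in cold 7 and 0 to 2 in each of the other mice. Values without cold 7 are given beside results of the 7 genes that it moves.

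Lcn2 encodes lipocalin 2, a small secreted protein that binds bacterial siderophores and so withholds iron. The gene lies on chromosome 2, 32384633 to 32388252 on the minus strand of GRCm38 (ENSMUSG00000026822.14). Lcn2 had 44.1, 124 and 123 CPM in cold 7, cold 12 and cold 16, against 21.3, 9.71 and 8.83 CPM in ctrl 5, ctrl 6 and ctrl 10. Every cold mouse lay above every ctrl mouse, with cold 7 the lowest of its group and ctrl 5 the highest of its own. In reads these were 32, 148 and 96 in the cold mice and 20, 13 and 10 in the ctrl mice. The means were 97 ± 45.8 CPM in cold and 13.3 ± 6.98 CPM in ctrl mice (SD, n = 3 each), a log2 difference of 2.97 ± 0.34 (SE, edgeR). Without cold 7 the difference was 3.28. It ranked 17th from the top among the 9772 genes tested. Because whole tissue was read, fewer cells of a type and less RNA per cell cannot be told apart in this or any later value.

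**Figure D1:**
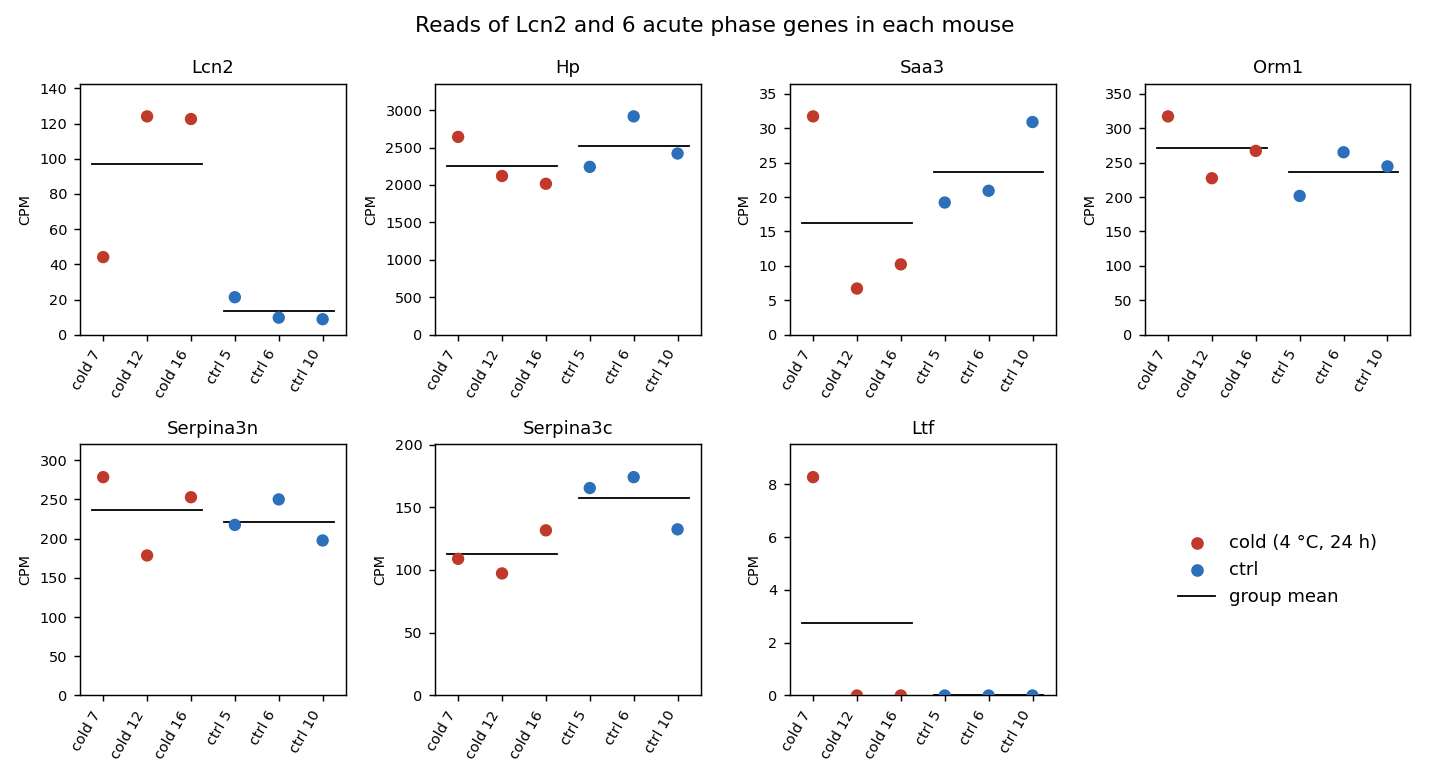
Level of each of the 7 genes in every mouse, in CPM on linear axes that start at 0. Red points are cold mice, blue points ctrl mice and the black line is the mean of a group. Lcn2 lies between 44.1 and 124 CPM in cold mice and between 8.83 and 21.3 CPM in ctrl mice, Serpina3c is lower in every cold mouse, and the groups of Hp, Saa3, Orm1 and Serpina3n overlap.

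Most Lcn2 reads came from the spliced coding transcript. Lcn2-201, of 915 bases and 6 exons, took 27, 131 and 76 reads in cold 7, cold 12 and cold 16, and 18, 11 and 8 reads in ctrl 5, ctrl 6 and ctrl 10. That was 79.2% to 88.5% of the gene's reads in cold mice and 80% to 90% in ctrl mice, ranges that overlap. Lcn2-204, a non-coding processed form of the same locus, took 3, 16 and 17 reads in the cold mice and 2 in each ctrl mouse. The retained-intron form Lcn2-203 had 5 reads over the cold mice and 0 over the ctrl mice, and Lcn2-206 had 1 read in cold 7. In the transcript fit Lcn2-201 differed by 2.94 ± 0.36 (log2, SE), beside 0.381% of all 12325 transcripts tested that passed an adjusted p of 0.05 (edgeR). Without cold 7, 162 of 14042 transcripts passed. Over the 7 genes 14 transcripts had a read, and 6 of them, 1 for each gene except Ltf, were deep enough to test.

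Hp encodes haptoglobin, which captures free haemoglobin in plasma, and is a steady product of adipocytes. It lies on chromosome 8, 109575128 to 109579172 (ENSMUSG00000031722.10). Hp had 2642, 2120 and 2016 CPM in cold 7, cold 12 and cold 16, against 2242, 2916 and 2420 CPM in ctrl 5, ctrl 6 and ctrl 10. The groups overlapped, and the log2 difference was -0.13 ± 0.14 (SE), or -0.28 without cold 7. Hp was the 34th most abundant gene in cold mice and the 32nd in ctrl mice. It made up 72% to 77% of the summed CPM of the 7 genes in cold mice and 78.2% to 80.2% in ctrl mice.

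Orm1 encodes orosomucoid 1, a glycoprotein of the lipocalin family that binds drugs and lipids in plasma. Its levels were 317, 227 and 267 CPM in cold 7, cold 12 and cold 16, and 202, 265 and 245 CPM in ctrl 5, ctrl 6 and ctrl 10. The groups overlapped, with a log2 difference of 0.20 ± 0.15 (SE), which was 0.06 without cold 7. Orm1 (chromosome 4, 63344560 to 63348163) shares 27.5% of the 31-base words of its transcript with other genes, foremost Orm2, and how reads were divided between such copies is not stated, so its level is uncertain.

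Saa3 encodes serum amyloid A3, an apolipoprotein that mouse adipocytes and macrophages make in inflammation. It had 31.7, 6.71 and 10.2 CPM in cold 7, cold 12 and cold 16, against 19.2, 20.9 and 30.9 CPM in ctrl 5, ctrl 6 and ctrl 10. Cold 7 was the highest of the 6 mice and cold 12 and cold 16 the lowest. In reads this was 23, 8 and 8 in the cold mice and 18, 28 and 35 in the ctrl mice. Of its 31-base words 5.71% recur in other genes, mostly Saa1. The log2 difference was -0.66 ± 0.41 (SE). Without cold 7 it was -1.52, which lay past the threshold of that fit and is given as a description only. Without cold 12 it was -0.18, and without any other mouse it lay between these values. The value therefore rests on which mice are kept. In cold 12 and cold 16 there were 18.5 and 12 reads of Lcn2 for each read of Saa3, and in cold 7 there were 1.39. In ctrl mice the ratio was 0.286 to 1.11.

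Serpina3n and Serpina3c are members of the mouse Serpina3 cluster on chromosome 12, serine protease inhibitors related to human antichymotrypsin. Serpina3n (104406729 to 104414329) had 279, 179 and 253 CPM in cold 7, cold 12 and cold 16, and 218, 250 and 198 CPM in ctrl 5, ctrl 6 and ctrl 10. The groups overlapped, with a log2 difference of 0.10 ± 0.16 (SE). Without cold 7 its sign turned, to -0.05. Serpina3c (104146382 to 104153870) had 109, 97.3 and 132 CPM in cold 7, cold 12 and cold 16, and 165, 174 and 132 CPM in ctrl 5, ctrl 6 and ctrl 10. Each cold mouse lay below each ctrl mouse, though cold 16 at 103 reads and ctrl 10 at 150 reads were nearly level in CPM (131.6 and 132.4). The log2 difference of Serpina3c was -0.47 ± 0.16 (SE), and -0.47 without cold 7. There were 2.56, 1.84 and 1.92 Serpina3n reads for each Serpina3c read in cold 7, cold 12 and cold 16, against 1.32, 1.44 and 1.49 in ctrl 5, ctrl 6 and ctrl 10. Of their 31-base words, 21.6% (Serpina3n) and 16.9% (Serpina3c) recur in other genes, mostly of the same cluster, so both levels are uncertain to that extent.

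Ltf encodes lactoferrin, an iron-binding protein of neutrophil secondary granules and of exocrine secretions. It had 6 reads in cold 7, which is 8.27 CPM with an exact 95% Poisson interval of 3.04 to 18 CPM. It had 0 reads in cold 12, cold 16 and all ctrl mice, where a count of 0 allows up to 2.24 to 3.83 CPM (3 reads). This 95% limit is for the upper side alone, unlike the interval, so the limit and interval are not alike. Both cover counting error only. Too few reads were present to test it. Cold 7 was the library with the epididymal epithelium genes named above, and the lowest cold mouse for Lcn2. Whether those cells account for the Ltf reads was not tested.

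**Figure D2:**
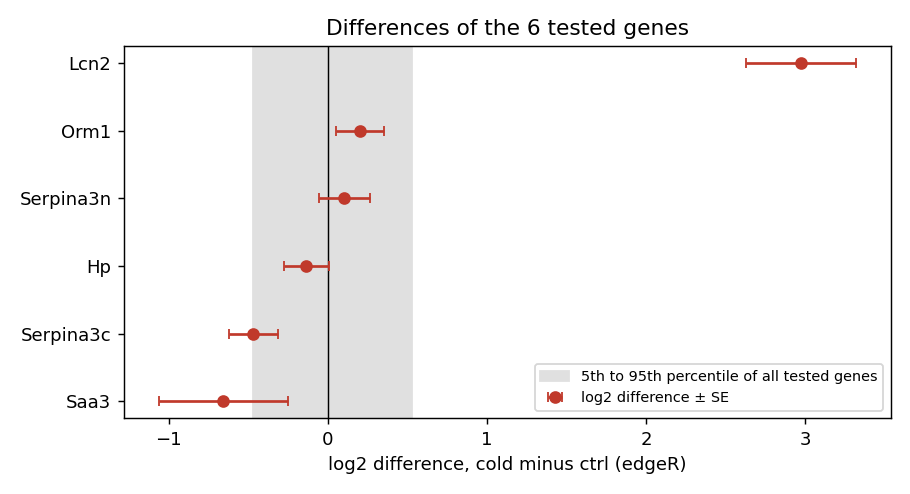
Log2 difference, cold minus ctrl, of the 6 tested genes with its standard error from the edgeR fit. The grey band runs from the 5th to the 95th percentile of all tested genes, -0.47 to 0.53. Lcn2 lies at 2.97, Orm1, Serpina3n and Hp lie within the band, Serpina3c (-0.47) lies at its lower edge and Saa3 (-0.66) below it.

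Set side by side, 6 of the 7 genes passed the filter on low counts, and 1 of these, Lcn2, was past the threshold while 5 were not. Over all genes tested, 0.655% were past the edgeR threshold, 0.542% higher and 0.113% lower in cold mice. That was 64 of 9772 genes, and without cold 7 it was 199 of 10560. Every cold mouse exceeded every ctrl mouse in 1 of the 7 genes (Lcn2), beside 5.96% of all tested genes, and lay below every ctrl mouse in 1 (Serpina3c), beside 7.7%. Since the contrast chose Lcn2, nothing is read from these counts. The median of the 6 log2 differences was -0.01, against 0.01 for all tested genes. The summed level of the 6 genes other than Lcn2 was 3386, 2630 and 2678 CPM in cold 7, cold 12 and cold 16, and 2846, 3626 and 3025 CPM in ctrl 5, ctrl 6 and ctrl 10, with overlap between groups.

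Per kilobase of the main transcript the order of levels in cold mice was Hp (1680 CPM per kb), Orm1 (349), Serpina3n (115), Lcn2 (106), Serpina3c (50.9), Saa3 (29.2) and Ltf (1.01). In ctrl mice it was Hp (1880 CPM per kb), Orm1 (306), Serpina3n (107), Serpina3c (71), Saa3 (42.6), Lcn2 (14.5) and Ltf (0 reads). In the cold mice the ranges of Serpina3n and Lcn2 overlapped (86.5 to 135 and 48.2 to 136 CPM per kb), as did those of Lcn2 and Serpina3c (44 to 59.5) and of Serpina3c and Saa3 (12.1 to 57.1). In the ctrl mice each gene's range lay apart from that of its neighbour in the order. A nanopore read covers a molecule rather than a stretch of fixed size, so division by length may understate long transcripts.

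Promoter sequences are shown for Lcn2, the gene that was higher in every cold mouse, and for Serpina3n and Serpina3c, members of the same cluster. The ratio of Serpina3n to Serpina3c reads lay apart between the groups, and so did those of Hp to Orm1 and Lcn2 to Saa3. No ratio of any other pair of the 7 genes was formed, so how often such ratios lie apart is not known. Hp reads for each Orm1 read were 8.33, 9.33 and 7.55 in cold 7, cold 12 and cold 16. In ctrl 5, ctrl 6 and ctrl 10 they were 11.1, 11 and 9.9. The ratio of Lcn2 to Saa3 contains the gene chosen for its difference, and no ratio was tested. The promoter sequences run 5′ to 3′ on the gene's strand from 250 bases before to 50 after the RefSeq start (GRCm38.p6). RefSeq entries were found for 5 of the 7 genes, and Hp and Orm1 were not among them. Capitals mark matches on either strand to 3 short motifs. The first is an NF-kB pattern of GGG and CC with 5 bases between them, the second the C/EBP pattern TTNNGNAAT and the third the STAT pattern TTCNNNGAA. Overlapping matches are merged in the capitals.

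Lcn2, chr2:32387690-32387989, minus strand: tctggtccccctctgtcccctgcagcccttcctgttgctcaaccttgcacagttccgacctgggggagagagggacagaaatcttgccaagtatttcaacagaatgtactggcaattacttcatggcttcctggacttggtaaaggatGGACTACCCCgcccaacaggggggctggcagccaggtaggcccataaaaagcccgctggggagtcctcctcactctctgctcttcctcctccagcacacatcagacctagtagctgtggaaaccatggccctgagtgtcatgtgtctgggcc

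Serpina3n, chr12:104406458-104406757, plus strand: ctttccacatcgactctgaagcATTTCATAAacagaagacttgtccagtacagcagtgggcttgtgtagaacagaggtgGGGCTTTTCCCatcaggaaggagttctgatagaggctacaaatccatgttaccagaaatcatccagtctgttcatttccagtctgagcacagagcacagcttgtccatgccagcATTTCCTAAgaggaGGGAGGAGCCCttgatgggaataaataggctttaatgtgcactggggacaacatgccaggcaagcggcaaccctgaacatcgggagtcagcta

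Serpina3c, chr12:104153823-104154122, minus strand: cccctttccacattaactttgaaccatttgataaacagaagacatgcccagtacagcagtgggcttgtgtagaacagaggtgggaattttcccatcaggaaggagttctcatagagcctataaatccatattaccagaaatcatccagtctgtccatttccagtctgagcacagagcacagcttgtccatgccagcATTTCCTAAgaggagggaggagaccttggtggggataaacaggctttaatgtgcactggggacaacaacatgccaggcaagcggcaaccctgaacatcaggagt

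Lcn2 held 1 NF-kB match, at -102 to -93 from the RefSeq start, and no match to the C/EBP or STAT pattern. Lcn2-201, which took most Lcn2 reads, starts at 32387797, upstream of the RefSeq start and inside the window. Serpina3n-201 starts at 104406729, downstream of its RefSeq start, so positions counted from the transcripts would differ. Serpina3n held NF-kB matches at -171 to -161 and -43 to -33 and C/EBP matches at -228 to -220 and -57 to -49. Serpina3c held 1 C/EBP match, at -54 to -46. The Serpina3n and Serpina3c windows were identical at 93.5% of 294 aligned bases. Over the 32851 RefSeq promoter windows, 50.8% hold the NF-kB pattern, 11.5% the C/EBP pattern and 8.3% the STAT pattern, so a match is a description of these letters only.

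Of 35 other genes of the response that are reported here 11 could be tested, and none of the 11 passed by edgeR, with a median log2 difference of -0.07. At an unadjusted p under 0.05 the edgeR test had 2 higher and 0 lower, and DESeq2 and limma-voom called 0. In 2 of the 11, Lbp and Mt1, every cold mouse lay above every ctrl mouse, beside 5.96% of all tested genes. In 0 of the 11 every cold mouse lay below every ctrl mouse, beside 7.7%. Lbp, which binds bacterial lipopolysaccharide, had 221 ± 55.9 CPM in cold and 153 ± 13.4 CPM in ctrl mice (SD, n = 3 each, edgeR adjusted p = 0.227). The metallothionein genes Mt1 and Mt2 had 564 ± 26.1 and 304 ± 73.7 CPM in cold and 426 ± 77.7 and 240 ± 80.7 CPM in ctrl mice (edgeR adjusted p = 0.32 and 0.692).

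Some acute phase genes that the liver secretes had few or no reads. Saa1 had 3 reads over the cold mice and 2 over the ctrl mice, Saa2 1 and 0, and Crp, which is not a strong acute phase protein in mice, 2 and 0. Saa4, Apcs, Fgb, Fgg, Serpina1c, Hamp, Pla2g2a and A2m had none in any mouse. Other untested genes of the list differed in both directions. Timp1 had 19, 7 and 4 reads in cold 7, cold 12 and cold 16, and 3, 5 and 5 in ctrl 5, ctrl 6 and ctrl 10. In CPM, Timp1 and Itih3 (6 reads over the cold and 1 over the ctrl mice) were higher in every cold mouse, but this order rests on library depth. Timp1 had fewer reads in cold 16 than in ctrl 6 or ctrl 10, and Itih3 had 1 read in both cold 16 and ctrl 5. Ptx3 had 6 reads over the cold and 18 over the ctrl mice. Genes whose plasma proteins go down in the acute phase were 4 tested of 10, with 0 past the edgeR threshold (1 lower at an unadjusted p under 0.05, 0 by DESeq2 or limma-voom) and a median of -0.14. Among these Igf1 had 247 ± 11.6 CPM in cold and 321 ± 36.9 CPM in ctrl mice (SD, n = 3 each, edgeR adjusted p = 0.406), transferrin (Trf) 1722 ± 99.8 and 1978 ± 104 CPM (0.788), and albumin (Alb) 83.8 ± 10.7 and 72.8 ± 15.8 CPM (0.837). The hepatocyte list, which also holds Alb, had 2 of 10 genes tested and 0 past the edgeR threshold (1 lower at an unadjusted p under 0.05, 0 by DESeq2 or limma-voom). Its sum of 2063 to 2226 CPM in cold and 2080 to 3671 CPM in ctrl mice was mostly Cyp2e1, a cytochrome P450, at 2040 ± 70 CPM in cold and 2694 ± 825 CPM in ctrl mice (SD, n = 3 each, edgeR adjusted p = 0.538).

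The cytokines that start the response were barely read. Il6 had 0 reads over the cold and 1 over the ctrl mice, Il1b 2 and 1, Tnf 1 and 0, Il1a 1 and 0, Osm 1 and 1 and Lif 6 and 4, while Il11, Il17a and Il22 had none. Differences in these ligands were not detectable at this depth. Of 11 tested receptor genes 0 passed by edgeR (1 lower at an unadjusted p under 0.05, 0 by DESeq2 or limma-voom), with a median of -0.17. The receptor of leukaemia inhibitory factor, Lifr, had 44.8 ± 6.56 CPM in cold and 61.3 ± 6.37 CPM in ctrl mice (SD, n = 3 each, edgeR adjusted p = 0.566). The interleukin-1 receptor gene Il1r1 had 30.7 ± 7.43 and 40.3 ± 4.42 CPM (0.708) and Il17rc 16.8 ± 3.55 and 21.7 ± 4.76 CPM (0.877).

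All 14 genes of signal transducers and transcription factors were tested and 0 passed by edgeR (0 at an unadjusted p under 0.05, 0 by DESeq2 or limma-voom), with a median of -0.07. Cebpd, a C/EBP factor induced early in the acute phase, had 32.6 ± 4.39 CPM in cold and 43.7 ± 5.58 CPM in ctrl mice (SD, n = 3 each, edgeR adjusted p = 0.655). The kinase gene Jak1 had 88.6 ± 11.6 and 105 ± 6.47 CPM (0.788) and Nfkb2 9.97 ± 2.47 and 14.2 ± 2.43 CPM (0.838). Of 14 tested target genes of NF-kB and STAT3, 0 passed by edgeR (2 lower at an unadjusted p under 0.05, 0 by DESeq2 or limma-voom), 5 lay above 0 and 9 below, and the median was -0.23. Every cold mouse lay below every ctrl mouse in 3 of these 14, beside 7.7% of all tested genes. The same held in 1 of the 14 transducers, 1 of the 11 receptors and 2 of the 4 genes that go down in the acute phase. In 0 genes of these lists every cold mouse lay above every ctrl mouse, beside 5.96%. The kinase gene Pim1 had 36.5 ± 9.21 CPM in cold and 55.2 ± 5.81 CPM in ctrl mice (edgeR adjusted p = 0.367), Bcl6 16.1 ± 4.93 and 25.3 ± 9.43 CPM (0.582) and Tnfaip3, the NF-kB brake A20, 7.8 ± 1.05 and 12 ± 1.25 CPM (0.741). A p that misses the threshold does not show that levels were equal.

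**Figure D3:**
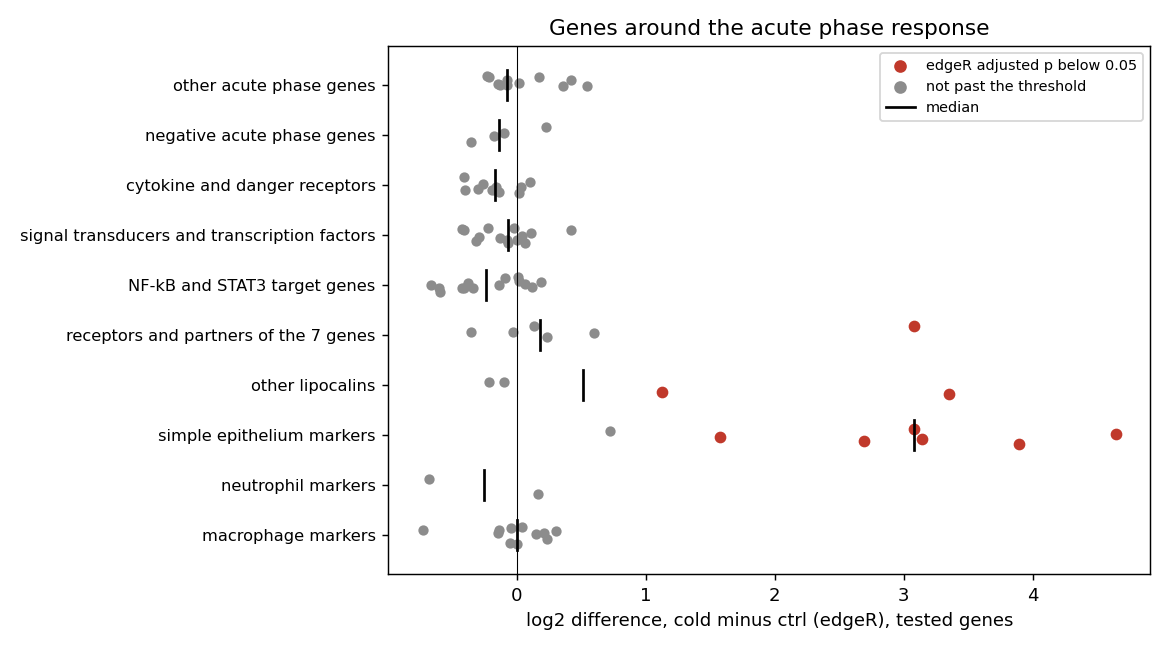
Log2 difference, cold minus ctrl, of each tested gene on 10 lists around the acute phase response. Red points passed the edgeR threshold, grey points did not, and the black bar is the median of a list. The simple epithelium list has a median of 3.08. The lists of other acute phase genes, cytokine receptors, transducers and target genes have medians of -0.07, -0.17, -0.07 and -0.23 and no red point.

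Among receptors and partners of the 7 proteins, 6 of 10 genes were tested, and 1 rose, 0 fell and 5 did not pass. The riser was Lrp2, which encodes megalin, an endocytic receptor of absorptive epithelia that takes up lipocalin 2. It had 34.5, 111 and 118 CPM in cold 7, cold 12 and cold 16, against 17.1, 7.47 and 8.83 CPM in ctrl 5, ctrl 6 and ctrl 10. Its log2 difference was 3.08 ± 0.37 (SE, edgeR adjusted p = 8.05e-05). Lrp2 was past the threshold in all 13 alternatives, which reuse the same mice. The adjusted p was 2.48e-30 in edgeR with no filter on low counts. In the others it ran from 1.95e-09 (edgeR without cold 7) to 0.00486 (limma-voom). This list too was chosen with earlier results of these data known. Scarb1, which binds serum amyloid A, had 108 ± 7.43 CPM in cold and 141 ± 21.5 CPM in ctrl mice (SD, n = 3 each, edgeR adjusted p = 0.534). Hmox1, which breaks down haem, had 51.1 ± 13.2 and 32.9 ± 13 CPM (0.55), and Cd163, the scavenger receptor for haptoglobin with haemoglobin, 39.2 ± 11.5 and 34.4 ± 9.93 CPM (0.899).

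Of 16 other lipocalin genes 4 could be tested, and 2 rose. Ptgds, the lipocalin-type prostaglandin D synthase, had 77.2, 34.4 and 47.3 CPM in cold 7, cold 12 and cold 16, against 6.4, 6.72 and 1.77 CPM in ctrl 5, ctrl 6 and ctrl 10 (log2 difference 3.35 ± 0.39, SE, edgeR adjusted p = 6.92e-05). Unlike Lcn2 it was highest in cold 7. Apod, apolipoprotein D, had 67.5 ± 20 CPM in cold and 30.8 ± 10.3 CPM in ctrl mice (SD, n = 3 each, edgeR adjusted p = 0.032), and lost the call with X2 files alone and without cold 12, cold 16, ctrl 5 or ctrl 10 (edgeR adjusted p 0.131 to 0.341). Orm3 had 25.6 ± 4.68 and 29.8 ± 5.36 CPM and Rbp4 1161 ± 132 and 1267 ± 89.5 CPM (edgeR adjusted p = 0.915 and 0.917). Lcn5 and Lcn8, lipocalins of the epididymal duct, had 0 and 1 reads over the cold mice and 1 and 0 over the ctrl mice. Lcn3, Lcn4, Lcn6, Lcn9, Lcn10 and Apom had none. The 9 other Serpina3 genes all had reads but too few to test. Serpina3k had 0, 1 and 2 reads in cold 7, cold 12 and cold 16, and 6, 12 and 8 reads in ctrl 5, ctrl 6 and ctrl 10.

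Which genes follow the levels of Lcn2 over the 6 mice was measured by the root mean square difference between log2 CPM values, each gene centred on its own mean. Lrp2 was closest of 9707 genes ranked, at 0.13 log2 units. Cldn7 (0.33), a tight junction protein, Acsbg1 (0.34), an acyl-CoA synthetase, and Krt8 (0.34), an epithelial keratin, came next. Prom1, Plet1, Atp1b1, Gm26880, Ppp1r1b and Epcam made up the rest of the nearest 10, at 0.38 to 0.41. In all 10 cold 7 was the lowest cold mouse, and in 9 ctrl 5 was the highest ctrl mouse, as in Lcn2. Krt8, for instance, had 22.1, 44.5 and 40.9 CPM in cold 7, cold 12 and cold 16, against 7.47, 1.49 and 4.41 CPM in ctrl 5, ctrl 6 and ctrl 10. They were picked for likeness to Lcn2 over the same 6 mice, and Lcn2 is higher in cold mice. Their own differences and the order of their mice are therefore no further result.

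The other 5 tested genes of the 7 had these places in the same ranking. Orm1 stood at 4036 of 9707 (1.45 log2 units), Serpina3n at 4849 (1.48), Hp at 7884 (1.59), Serpina3c at 8978 (1.67) and Saa3 at 9693 (2.06). Lcn2 was chosen for its difference between cold and ctrl mice, so a gene without that difference has to lie at a distance from it, and the ranks are a description. In cold 12 Saa3 lay at -1.18 log2 units from its mean over the mice, and Lcn2 lay at 1.81.

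**Figure D4:**
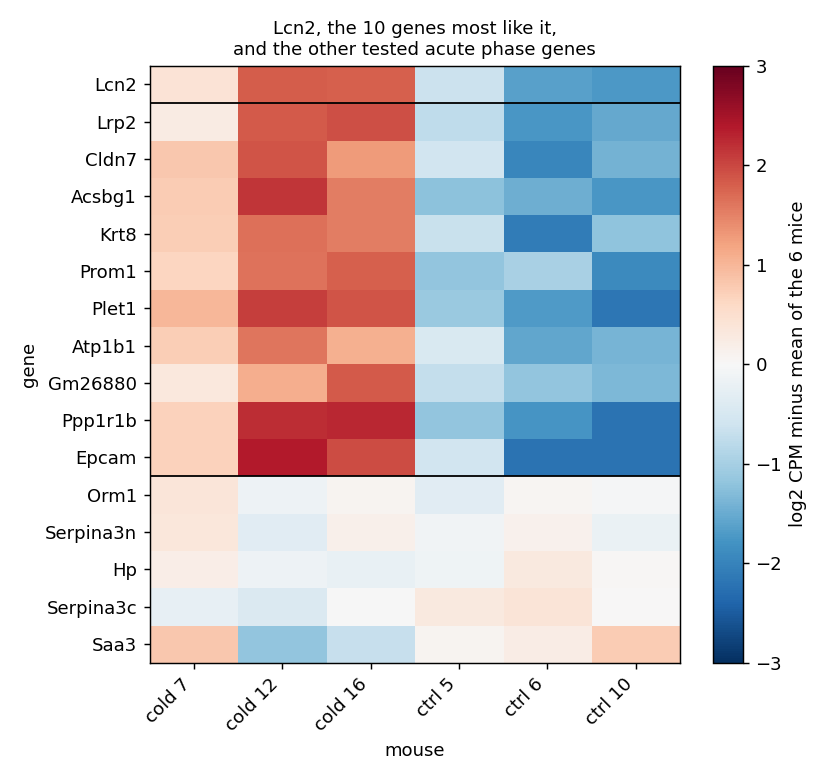
Log2 CPM minus the mean of the 6 mice (colour, red above and blue below) for Lcn2, the 10 genes nearest to it and the other 5 tested acute phase genes; columns are mice, cold left of ctrl. Lcn2 lies at 0.4 in cold 7 and 1.81 in cold 12, with the nearest genes alongside, while Orm1, Serpina3n, Hp and Serpina3c stay within 0.43 of their means.

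Markers of other cell types were read beside Lcn2 and Ltf. All 14 simple epithelium markers had reads and 7 were tested, and 6 rose (Epcam, Krt8, Krt18, Cldn7, Lrp2 and Spint2) while Krt19 did not pass. Of all tested genes 0.542% passed as higher in cold mice. This list, like the others, was chosen with earlier results of these data known. Lrp2, Cldn7, Krt8 and Epcam were also among the 10 genes picked for likeness to Lcn2. The rises are therefore a description and no further result on Lcn2. The summed level of the 14 markers was 215, 399 and 356 CPM in cold 7, cold 12 and cold 16, against 93.9, 42.6 and 67.1 CPM in ctrl 5, ctrl 6 and ctrl 10. The groups did not overlap and cold 7 was the lowest cold mouse. This sum holds the 4 genes picked for likeness to Lcn2, so its order of mice is no further result either. Epcam, an adhesion molecule of epithelial cells, had 12.4, 45.3 and 33.2 CPM in the cold mice and 4.27, 0 and 0 CPM in the ctrl mice (edgeR adjusted p = 0.000374), and did not pass by DESeq2 (adjusted p = 0.245). Krt18 had 31.2 ± 11.6 CPM in cold and 5.19 ± 1.91 CPM in ctrl mice (SD, n = 3 each, edgeR adjusted p = 0.000324), Cldn7 17.9 ± 7.57 and 1.36 ± 1.65 CPM (0.00126), and Spint2, an inhibitor of epithelial proteases, 50.7 ± 6.92 and 17.6 ± 2.3 CPM (0.000497). Cldn7 lost the call without cold 12 (edgeR adjusted p = 0.0821), and several risers had too few reads for some alternatives. Cldn7, Epcam and Krt18 could not be tested with X1 or with X2 files alone, Krt8 not with X2 files alone, and Cldn7 and Epcam not with at least 10 reads required in 3 mice.

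There were 20.5, 31.1 and 34.4 Lcn2 reads for each 100 reads of these 14 markers in cold 7, cold 12 and cold 16, and 22.7, 22.8 and 13.2 in ctrl 5, ctrl 6 and ctrl 10. For each 100 Lrp2 reads there were 128, 112 and 104 Lcn2 reads in the cold mice and 125, 130 and 100 in the ctrl mice. Lcn2 was therefore higher in CPM in every cold mouse, while its ratio to Lrp2 overlapped between the groups. The ratios were formed after the values were seen, and Lrp2 was the gene nearest to Lcn2, so its ratio had to vary little. The part of epithelial cells in the higher Lcn2 level was not tested.

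The summed epididymal epithelium list, like Ltf, was highest in cold 7, a sum carried by a few of its genes. Of its 20 genes 13 had reads and none was deep enough to test, and Lcn9, Lcn10, Adam28, Cst11, Gpx5, Bsph1 and Ly6g5c were at 0. Besides Crisp1, cold 7 held 91 reads of Spink8 and 9 of Adam7, both genes of the duct, where the other mice held at most 1 of each. Other genes of the list did not follow this. Aqp9, a water and glycerol channel, had 3, 7 and 4 reads in cold 7, cold 12 and cold 16, too few to order the cold mice. It had 0, 3 and 0 reads in ctrl 5, ctrl 6 and ctrl 10. Rnase10 and Defb42 had 0 reads in every cold mouse and 3 and 4 reads over the ctrl mice.

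Neutrophil markers did not set the groups apart. Of 16 markers 10 had reads, 2 were tested and 0 passed by edgeR (1 lower at an unadjusted p under 0.05, 0 by DESeq2 or limma-voom). Their sum was 45.5, 32.7 and 54.9 CPM in cold 7, cold 12 and cold 16, and 40.5, 62.7 and 49.4 CPM in ctrl 5, ctrl 6 and ctrl 10. The granule genes Ngp, Mpo, Mmp8 and Fcnb, the surface antigen gene Ly6g and the stefin gene Stfa2 were at 0 in every mouse, and Camp, the cathelicidin of secondary granules, had 2, 2 and 3 reads in the cold and 1, 7 and 1 in the ctrl mice. S100a8 had 11.2 ± 2.71 CPM in cold and 9.01 ± 9.03 CPM in ctrl mice (SD, n = 3 each, edgeR adjusted p = 0.967), and Prtn3 14.8 ± 5.41 and 24.2 ± 5.95 CPM (0.557).

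The remaining cell type lists held 1 gene past the edgeR threshold, a marker of mature adipocytes. Of 11 tested macrophage markers 0 passed by edgeR (1 lower at an unadjusted p under 0.05, 0 by DESeq2 or limma-voom), with sums of 1769, 1292 and 1037 CPM in cold 7, cold 12 and cold 16, and 1564, 1247 and 1356 CPM in ctrl 5, ctrl 6 and ctrl 10. Trem2 had 11.2 ± 3.07 CPM in cold and 19.1 ± 4.07 CPM in ctrl mice (SD, n = 3 each, edgeR adjusted p = 0.552), the mannose receptor gene Mrc1 125 ± 30.1 and 109.5 ± 15.9 CPM (0.84) and the complement gene C1qa 320 ± 36.9 and 295 ± 66.9 CPM (0.891). Of 5 tested mesothelial markers 0 passed by edgeR (2 lower at an unadjusted p under 0.05, 0 by DESeq2 or limma-voom), and they summed to 98.4 to 212 CPM in cold and 101 to 258 CPM in ctrl mice. Upk3b had 37.4 ± 28.6 CPM in cold and 67.5 ± 32.9 CPM in ctrl mice (edgeR adjusted p = 0.557), Gpm6a 21.2 ± 12.7 and 35.3 ± 9.89 CPM (0.544) and Krt19 18.9 ± 4.7 and 12.3 ± 6.99 CPM (0.658). Of 10 tested markers of adipocyte precursors 0 passed by edgeR (0 at an unadjusted p under 0.05, 0 by DESeq2 or limma-voom). Pdgfra had 28.7 ± 3.6 CPM in cold and 21 ± 6.77 CPM in ctrl mice (edgeR adjusted p = 0.653), Cd34 105 ± 16 and 122 ± 25.5 CPM (0.855) and Ly6a 248 ± 16.9 and 230 ± 52.1 CPM (0.896). Of 12 tested markers of mature adipocytes 1 passed by edgeR, 2 by DESeq2 and 2 by limma-voom, with 3 higher and 1 lower at an unadjusted p under 0.05 (edgeR), and 4 log2 differences lay above 0 and 8 below. Pnpla2, the lipase that starts lipolysis, rose, with 1912 ± 91.8 CPM in cold and 1243 ± 90 CPM in ctrl mice (edgeR adjusted p = 0.00971), and was past the threshold in neither the fit without cold 12 nor that without ctrl 6 (0.0958 and 0.064). Lep, the hormone leptin, had 685 ± 184 CPM in cold and 437 ± 44.4 CPM in ctrl mice (0.0628), Cfd, the complement protease adipsin, 10880 ± 760.4 and 15540 ± 914 CPM (0.0857) and Fabp4, a fatty acid carrier, 22820 ± 576 and 18350 ± 1764 CPM (0.387). Of the 12, each cold mouse lay above each ctrl mouse in 3 (Pnpla2, Lep and Fabp4), beside 5.96% of all tested genes. Each lay below in 2, Cfd among them, beside 7.7%.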

How the data were processed

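The authors deposited raw read counts per transcript, 2 files (X1 and X2) for each mouse, 12 in all, listing transcripts with at least 1 read. The submitters' processing notes name minimap2 and GRCm38 without saying for which step. The labels state neither the counting tool, what separates X1 and X2, strand use, nor how reads matching several transcripts were assigned. The 2 files of a mouse differed by about the sampling noise (chi-square per degree of freedom 1.02 to 1.06 over transcripts with at least 20 reads) and were summed, which left 3 mice a group. Of 61729 transcript identifiers 61538 matched GENCODE M21 and were summed to 23492 genes. No other annotated gene overlaps the 7 genes.

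Both gene and transcript counts entered edgeR 4.0.16 (run in R 4.3.3): filterByExpr (minimum count 10), TMM, the quasi-likelihood F test and Benjamini-Hochberg adjustment over all features, threshold 0.05, with the SE derived from F. A number alone in brackets after a gene's CPM is its edgeR adjusted p. Alternatives were RLE factors, DESeq2 1.42.0, limma-voom (limma 3.58.1), other filters, X1 or X2 files alone and each mouse left out. On simulated counts for genes, 63% of 2-fold and 96% of 4-fold changes were found, and 3.64% of calls were false.

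The 7 genes, the 17 gene lists and the tests were chosen with earlier results of these data known. Named are the 7 genes, list genes past the threshold or else the 3 with the smallest p,  and the 10 genes nearest to Lcn2 with at least 10 mean reads in the higher group (log2 CPM, prior count 2). Genes too shallow to test, and non-passing genes of lists with a call, were named after their values were seen. Chi3l1 had no match and is not used here. A further 2 genes of the lists are not reported here, and the counts and medians of their lists leave them out.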

Additional observations from a re-analysis of the deposited data

How the results depend on the processing

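The number of genes past the threshold was 64, and was 371 with no filter on low counts and 38 with X2 files alone; with each mouse left out in turn it lay between 35 (without cold 12) and 199 (without cold 7), and was 106 without ctrl 5. For transcripts the number was 47, and was 260 with no filter, 30 with X1 files alone, 26 with X2 files alone, and 26 (without cold 12) to 162 (without cold 7) with a mouse left out, 71 without cold 16 and 71 without ctrl 5. The X1 or X2 files alone also held fewer reads, and the cause of these differences was not tested. Lcn2 kept its direction in all 13 alternatives, with log2 differences of 2.71 to 3.4. Those of Hp were -0.28 to -0.02, of Orm1 0.06 to 0.32, of Serpina3c -0.59 to -0.36 and of Saa3 -1.52 to -0.18, none changing sign; Saa3 could not be tested with X2 files alone. Serpina3n ranged from -0.05 to 0.28 and changed sign in 1 alternative, without cold 7. Ltf was too shallow for any fit with a filter. The median of all tested genes moved by less than 0.1 under each alternative. With 0.747 to 1.38 CPM for each read, differences of Saa3, Ltf and the cytokines are limited by counting. No paired analysis was possible because cold and ctrl mice share no replicate number.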
